A study of Homo sapiens with 6 samples.

Results

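The genes described here are 31 known targets of the tumour suppressor p53, picked by symbol from the 62754 gene rows measured in HUDEP-2 cells. The list was drawn from general knowledge of p53, but with earlier results of these data known. It leaves out the inhibitors of cyclin-dependent kinases and the BCL2 family. The other gene lists below were also chosen with those results known. Shares of a list set beside all tested genes are therefore descriptions and not independent evidence. HUDEP-2 is an immortalised human erythroid progenitor line. The series, on the MLL1 complex and the repression of fetal hemoglobin, set 3 libraries from cells with a lentiviral shRNA against MEN1 (MEN1sh2, labelled a MEN1 knockdown) beside 3 from cells with a non-targeting shRNA (Controlsh, labelled wild type). MEN1 encodes menin, a subunit of the MLL1 histone methyltransferase complex. Both groups grew in StemSpan SFEM with erythropoietin (3 units per ml), stem cell factor (50 ng per ml), dexamethasone (1e-06 M) and doxycycline (1 µg per ml). Both received puromycin at 2 µg per ml for 48 h from 24 h after infection, and RNA was taken at 72 h. The labels name a single MEN1 hairpin, so menin loss and off-target action of the hairpin cannot be told apart.

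p53 is a transcription factor that is held low by MDM2 and is stabilised by DNA damage, ribosomal stress and other insults. It then switches on genes for cell cycle arrest, apoptosis, DNA repair and metabolism, and also MDM2 itself, which closes a negative feedback loop. In erythroid precursors p53 is best known for its activation when ribosome production fails, as in Diamond-Blackfan anemia. HUDEP-2 cells were immortalised with doxycycline-inducible papillomavirus E6 and E7 genes, and E6 directs the degradation of p53 through the ubiquitin ligase UBE3A. The doxycycline in the medium was common to both groups, so no library here shows the line without that induction.

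Poly(A) RNA was sequenced to a depth of 5560 to 10810 megabases aligned per library, inferred from the deposited coverage and FPKM. Levels are given as TPM, a gene's share of the library's transcripts after correction for gene length. MEN1 fell to 6.54 ± 0.303 TPM from 39.3 ± 2.10 TPM (SD, n = 3 each), a log2 fold change of -2.42 (adjusted p 8.54e-06 in limma). Globin transcripts were abundant, and the summed level of 10 erythroid markers was 95907 to 107883 TPM after MEN1 knockdown and 55447 to 61495 TPM in the controls. Most of this sum came from HBB, HBA1 and HBA2. Of the 10 markers, among them SLC4A1 and ALAS2, 7 rose and 0 fell at an adjusted p under 0.05. That is 70% higher, against 22.1% of all tested genes. The other 3, KLF1, GATA1 and EPOR, did not pass (log2 fold changes -0.05, 0.06 and 0.02). Markers of other lineages were near 0: the 5 myeloid markers summed to at most 2.40 TPM in a library, the 5 stromal ones to at most 4.44 TPM and the 5 lymphoid ones to at most 5.71 TPM, while PF4, PPBP and MS4A1 were listed at 0 in all 6 libraries. The tryptase genes TPSAB1 and TPSB2 were the exception, and both fell. The 5 mast cell markers summed to 725 to 885 TPM after MEN1 knockdown and to 1037 to 1307 TPM in the controls, nearly all from these tryptases. The other mast cell markers were low, the highest being MS4A2 with means of 0.90 TPM after MEN1 knockdown and 1.62 TPM in the controls. The megakaryocyte sum, nearly all from ITGA2B, was 16.6 to 21.1 TPM against 31.6 to 36.4 TPM, and CD3D rose from a mean of 0.397 to 4.40 TPM. The part of these markers in the results on p53 targets was not tested, and in bulk RNA a change in the mix of cells and a change per cell cannot be told apart.

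Of the 31 p53 targets, 27 reached 1 TPM in 3 or more libraries and were tested, and each of the 27 was above 2 TPM in all 6 libraries. With the MEN1 shRNA 16 of the 27 rose (59.3%), 3 fell (11.1%) and 8 did not pass an adjusted p of 0.05 in limma. Over all 14294 genes tested, 53.6% passed the threshold, 22.1% upward and 31.5% downward. That excess of falls depended on the scaling, with 3158 genes higher and 4499 lower here but 3758 and 3838 with median-of-ratios scaling and 3731 and 3863 with quantile normalization. Under those scalings 17 and 18 members were higher, and 3 were lower under both. A rise of at least 2-fold was met by 5 members (18.5%), against 4.96% of all tested genes, and a fall of that size by 0, against 6.9%. The median log2 fold change of the members was 0.35 and that of all tested genes was -0.07. The groups of libraries did not overlap for 20 members (74.1%), 17 upward and 3 downward, against 61.8% of all genes, 25.8% upward and 35.9% downward. The summed level of all 31 members was 860, 1004 and 981 TPM after MEN1 knockdown, against 529, 552 and 566 TPM in the controls, and without GDF15 it was 741, 796 and 816 TPM against 515, 543 and 558 TPM. Every MEN1 shRNA library thus had a higher summed TPM of these members than every control, with or without GDF15. That did not extend to the summed level of 30 further p53 targets, described below, which overlapped between groups. It was 452 to 500 TPM after MEN1 knockdown and 424 to 456 TPM in the controls. The members responded unequally: GDF15, BTG2, GADD45A, TP53INP2 and TP53INP1 more than doubled, while MDM2, AEN and TRIAP1 fell.

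**Figure D1:**
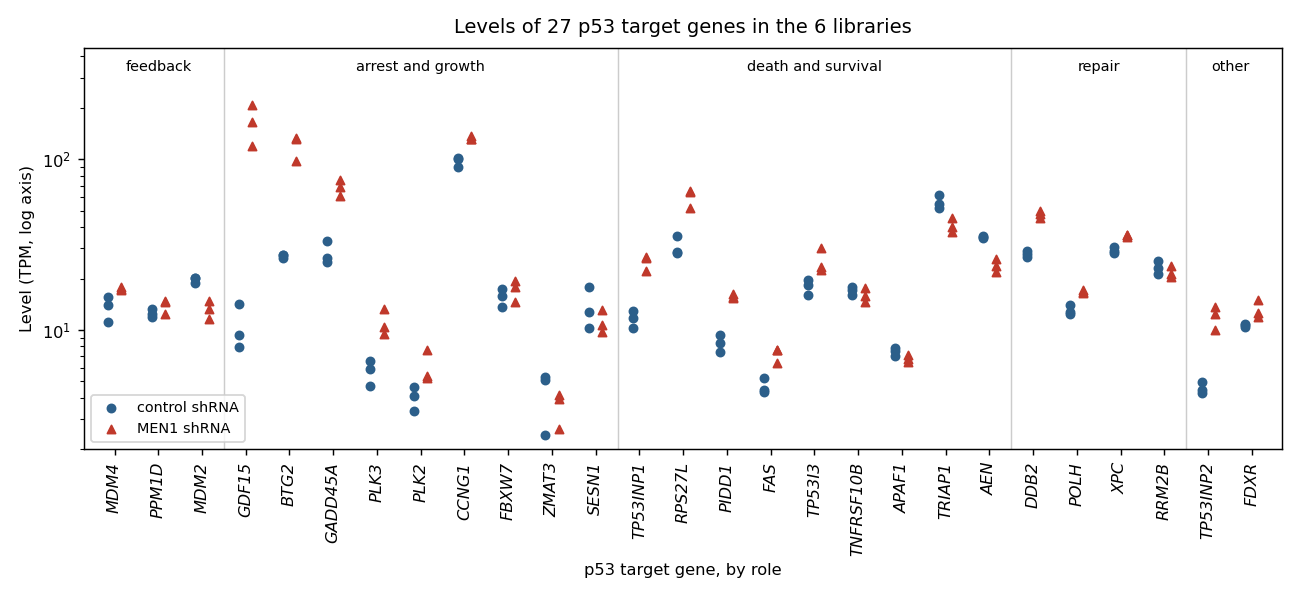
Level of each of the 27 tested p53 target genes (TPM, log axis) in the 3 control libraries (blue circles) and the 3 MEN1 shRNA libraries (red triangles), ordered by role and, within a role, by log2 fold change. GDF15 shows the widest gap between groups, and CCNG1 has the highest mean control level, 97.2 TPM.

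The feedback genes moved in different directions, and their summed level overlapped between groups (44.2 to 45.3 TPM after MEN1 knockdown, 43.1 to 48.3 TPM in the controls). MDM2 (ENSG00000135679, chromosome 12, 68808177 to 68845544, plus strand), the ubiquitin ligase that degrades p53, was measured at 14.7, 11.6 and 13.3 TPM after MEN1 knockdown (replicates 1, 2 and 3, the order used throughout), against 20.2, 18.9 and 20.2 TPM in the controls. Every MEN1 shRNA library lay below every control library, a log2 fold change of -0.55 (limma, SE 0.0987, adjusted p 0.00234). MDM2 is one of the most widely used readouts of p53 activity, which was not measured here. While 16 of the 27 tested members rose, AEN and TRIAP1, described below, fell as MDM2 did. MDM4, which binds p53 and blocks its activation domain, was at 17.2, 17.8 and 17.4 TPM after MEN1 knockdown, against 11.1, 14.1 and 15.7 TPM in the controls. Its groups did not overlap, but its rise was small (log2 fold change 0.35, SE 0.122, adjusted p 0.0418), and in 5 of the 6 fits that left out 1 library its adjusted p was 0.0724 to 0.104. The exception was the fit without control replicate 3, where the adjusted p was 0.0200. PPM1D, a phosphatase that removes activating phosphates from p53 and its kinases, was at 12.4, 14.8 and 14.6 TPM against 11.8, 13.3 and 12.5 TPM. Those groups overlapped and the difference missed the threshold (log2 fold change 0.14, adjusted p 0.272).

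An unnamed gene row on the same strand, ENSG00000256664, overlaps MDM2 by 439 bases and had a mean of 1.83 TPM after MEN1 knockdown and 13.6 TPM in the controls. With its TPM added to that of MDM2, a sum chosen after the data were seen, the means were 15.0 and 33.4 TPM and the log2 fold change was -1.12 (adjusted p 0.000401). MDM2 has a second promoter in its first intron, and this is where p53 is known to bind. The 100 bases below, from RefSeq (GRCh38.p14, chr12:68808883-68808982, plus strand), lie in an intron of MDM2, since they overlap none of its exons in GENCODE v29. They are shown because they hold a pair of matches to the p53 response element consensus, 2 abutting half-sites of 10 bases each, at bases 41 to 60 with 2 mismatches and at bases 79 to 98 with 3. Capitals mark those matches.
MDM2: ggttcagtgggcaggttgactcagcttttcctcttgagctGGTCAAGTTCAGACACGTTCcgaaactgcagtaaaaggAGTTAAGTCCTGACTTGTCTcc

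The same 20-base consensus was sought in the RefSeq promoter windows of all genes, from 250 bases before to 50 after a transcription start. The consensus is its own reverse complement, so a match on one strand is a match on both, and a match is a description of letters, not a binding site. Of the 31 members 26 had a window, and those without one were GADD45A, PHLDA3, RRM2B, TNFRSF10B and TP53INP1. A match with at most 2 mismatches was present in 4 of the 26 (15.4%), against 0.820% of the 27305 genes with a window. With at most 3 mismatches there were 10 members (38.5%), against 6.39% of genes. Members were picked as known p53 targets, and some are known through these very sites, so these shares describe the list and are not independent evidence. The best match of each of the 10 is shown, in order of mismatches, because those with the closest matches moved both ways. Capitals mark bases that fit the consensus and lower case those that do not.
DDB2: AAGCTgGTTTGAACAAGCCC
AEN: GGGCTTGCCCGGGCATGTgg
FAS: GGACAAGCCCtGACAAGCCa
MDM2: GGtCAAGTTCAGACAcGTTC
FBXW7: tGGCTAtTCTAGGaTAGTTT
FDXR: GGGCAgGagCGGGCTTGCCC
GDF15: AGcCATGCCCGGGCAAGaaC
RPS27L: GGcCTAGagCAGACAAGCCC
SESN1: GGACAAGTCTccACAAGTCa
XPC: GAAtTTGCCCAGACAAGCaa

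On GRCh38.p14 the 4 closest matches lie at chr11:47214969-47214988 for DDB2, chr15:88621306-88621325 for AEN, chr10:88991309-88991328 for FAS and chr12:68808923-68808942 for MDM2. Of these 4 genes, DDB2 and FAS rose with the MEN1 shRNA, and AEN and MDM2 fell. Of the 6 with 3 mismatches, GDF15, RPS27L and XPC rose, and FBXW7, FDXR and SESN1 did not pass the threshold. BTG2, the member with the second largest rise, had no match with 3 or fewer mismatches in its window.

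Genes of growth arrest held the largest rises. Of these 9 genes 6 were higher (66.7%, against 22.1% of all tested genes), 0 lower (against 31.5%) and 3 not past the threshold. GDF15 (ENSG00000130513, chromosome 19, 18374731 to 18389176, plus strand) encodes a secreted stress cytokine of the TGF-beta family. It was measured at 119, 208 and 165 TPM after MEN1 knockdown, against 14.1, 9.39 and 7.91 TPM in the controls. The means of 164 ± 44.7 and 10.5 ± 3.24 TPM (SD, n = 3 each) stand in a ratio of 15.7, a log2 fold change of 3.85 (limma, SE 0.244, adjusted p 3.32e-05). GDF15 thereby was the most abundant member in MEN1 shRNA replicates 2 and 3, with CCNG1 ahead of it in replicate 1. The microRNA gene MIR3189 lies within it on the same strand, and adding its row gave a log2 fold change of 3.77.

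BTG2 (ENSG00000159388, chromosome 1, 203305491 to 203309602, plus strand), an antiproliferative gene of the BTG/TOB family that recruits the deadenylase complex, was at 96.9, 133 and 131 TPM after MEN1 knockdown. The controls were at 27.5, 27.3 and 26.2 TPM, so the groups were far apart, with MEN1 shRNA replicate 1 lowest in its group. This was a log2 fold change of 2.10 (SE 0.12, adjusted p 2.63e-05). GADD45A (ENSG00000116717, chromosome 1, 67685201 to 67688334, plus strand), a stress-induced protein that binds PCNA and activates stress kinases, was at 60.7, 68.3 and 75.4 TPM against 33.0, 26.3 and 25.1 TPM. All 3 MEN1 shRNA libraries lay above the controls, with a log2 fold change of 1.25 (SE 0.121, adjusted p 0.000139). PLK3, a polo-like kinase of the stress response, was at 9.52, 10.3 and 13.2 TPM against 5.92, 6.55 and 4.69 TPM. This rise (log2 fold change 0.84, adjusted p 0.0028) was larger than that of its relative PLK2, at 6.08 ± 1.31 against 4.03 ± 0.642 TPM (0.48, adjusted p 0.0396), although the difference between the 2 kinases was not tested. The PLK2 call was lost without MEN1 shRNA replicate 3 (adjusted p 0.114), control replicate 1 (0.119) or control replicate 2 (0.0844).

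CCNG1, which encodes cyclin G1 and directs a phosphatase to MDM2, rose from 97.2 ± 5.81 to 133 ± 2.96 TPM, or 0.45 as log2 fold change (adjusted p 0.000641). The remaining arrest genes overlapped between groups. FBXW7, the substrate receptor of a ubiquitin ligase for MYC and cyclin E, was at 17.2 ± 2.49 against 15.5 ± 1.87 TPM (log2 fold change 0.14, adjusted p 0.404). SESN1, a sestrin that restrains mTORC1, was at 11.1 ± 1.71 against 13.6 ± 3.86 TPM (-0.24, adjusted p 0.325). ZMAT3, an RNA-binding splicing regulator, was at 3.58 ± 0.821 against 4.27 ± 1.59 TPM (-0.17, adjusted p 0.620), with wide scatter in the controls. With 1 library left out, the log2 fold change ran from 0.051 to 0.25 for FBXW7, from -0.42 to -0.045 for SESN1 and from -0.45 to -0.0084 for ZMAT3.

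**Figure D2:**
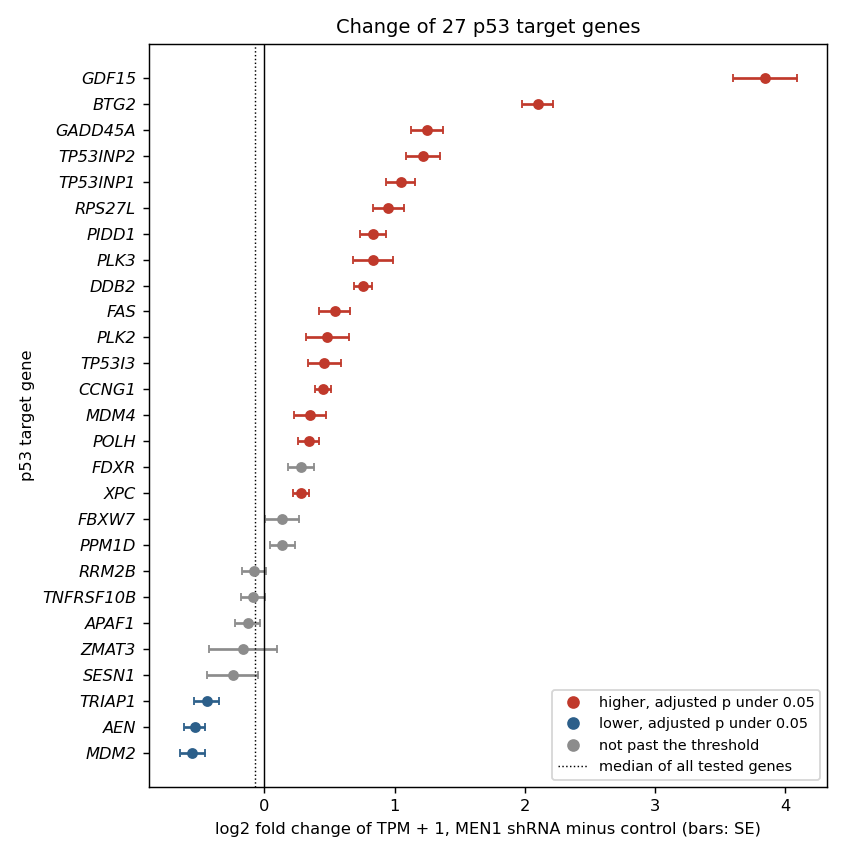
Log2 fold change of TPM + 1 (MEN1 shRNA minus control, n = 3 each; bars are the standard error from limma) for the 27 tested p53 target genes, ordered by size. Red points rose and blue points fell past an adjusted p of 0.05, grey points did not pass, and the dotted line is the median of all tested genes at -0.07; the values run from -0.55 for MDM2 to 3.85 for GDF15.

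Among the 11 genes of cell death and survival, 9 were tested. Of the 9, 5 rose (55.6%, against 22.1% of all tested genes), 2 fell (22.2%, against 31.5%) and 2 did not pass. TP53INP1 (chromosome 8, 94925972 to 94949378, minus strand), a stress protein that promotes p53 phosphorylation and autophagy, was at 22.3, 26.8 and 26.2 TPM after MEN1 knockdown, against 10.3, 12.9 and 11.7 TPM in the controls. Its levels about doubled with no overlap (ratio 2.16, log2 fold change 1.05, SE 0.110, adjusted p 0.000192). RPS27L (chromosome 15, 63125872 to 63158021, minus strand), a ribosomal protein paralog that modulates MDM2, was at 51.6, 64.1 and 65.0 TPM against 28.1, 28.5 and 35.3 TPM. This was also a rise without overlap (log2 fold change 0.95, SE 0.122, adjusted p 0.00046), but RPS27L closely resembles RPS27, so the division of reads between them is uncertain. PIDD1, the scaffold of a caspase-activating complex, was at 15.4, 15.5 and 16.3 TPM against 7.41, 9.35 and 8.43 TPM (log2 fold change 0.84, SE 0.101, adjusted p 0.000358).

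Of the death receptors, FAS rose and TNFRSF10B did not pass the threshold. FAS was at 7.65, 7.65 and 6.44 TPM after MEN1 knockdown, against 4.46, 4.31 and 5.22 TPM in the controls, with every MEN1 shRNA library above every control (log2 fold change 0.54, SE 0.119, adjusted p 0.00632). TNFRSF10B, a receptor for the death ligand TRAIL, was at 16.0 ± 1.46 against 17.0 ± 0.878 TPM (log2 fold change -0.09, adjusted p 0.465). TP53I3, a quinone oxidoreductase, rose from 18.04 ± 1.86 to 25.3 ± 4.08 TPM (0.46, adjusted p 0.0174), and its adjusted p was 0.0593 without control replicate 2. APAF1, the core of the apoptosome, was at 6.79 ± 0.309 against 7.50 ± 0.428 TPM (-0.13, adjusted p 0.307).

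The death and survival group also held 2 of the 3 members that fell. AEN (ENSG00000181026, chromosome 15, 88621337 to 88632281, plus strand), a nuclease that degrades DNA and RNA in apoptosis, was at 26.0, 23.6 and 21.9 TPM after MEN1 knockdown. The controls lay close together at 34.6, 34.9 and 35.3 TPM, all above the MEN1 shRNA libraries (log2 fold change -0.54, SE 0.0782, adjusted p 0.000872). TRIAP1, a small mitochondrial protein that favours survival, was at 45.3, 40.2 and 37.2 TPM against 54.4, 51.7 and 61.5 TPM, again without overlap (log2 fold change -0.44, adjusted p 0.00599). MDM2, AEN and TRIAP1 were lower and past the threshold in all 16 alternative settings run for AEN and TRIAP1 and all 17 run for MDM2.

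**Figure D3:**
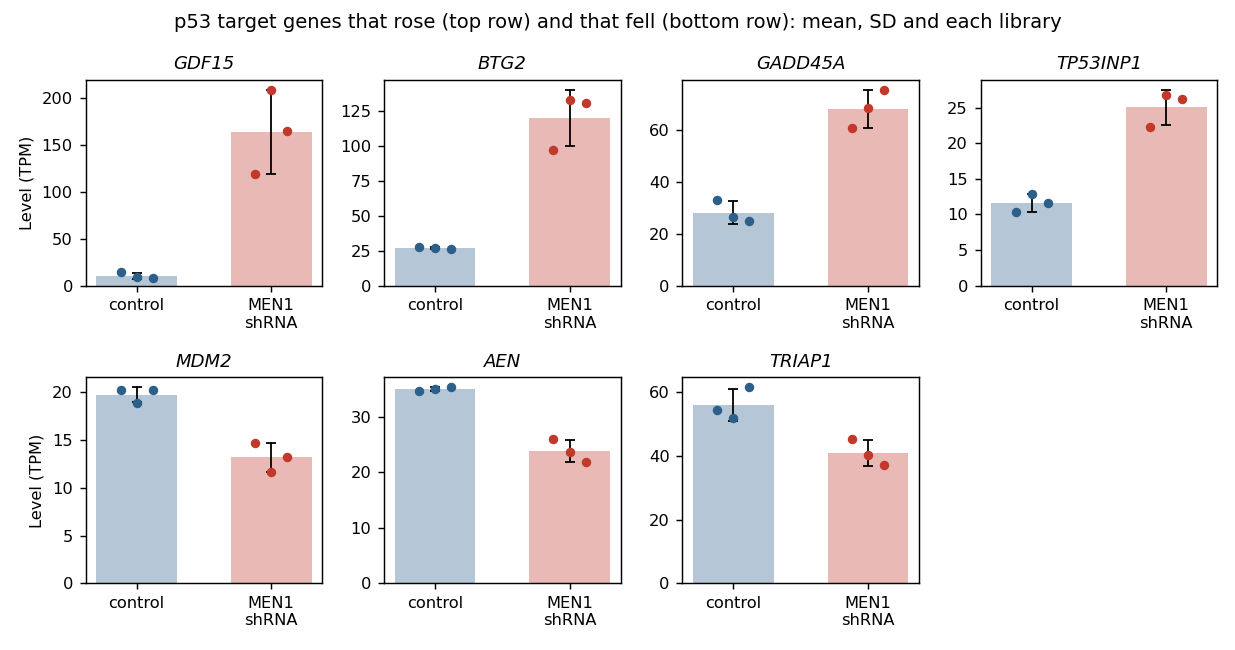
Mean level (bar, TPM), SD (error bar) and each library (point; n = 3 per group) for 4 p53 targets that rose and for MDM2, AEN and TRIAP1, which fell. In each panel the 3 MEN1 shRNA points lie wholly above (top row) or wholly below (bottom row) the 3 control points.

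In DNA repair and nucleotide supply, 3 of 4 genes rose (75%, against 22.1% of all tested genes). DDB2 (ENSG00000134574, chromosome 11, 47214465 to 47239217, plus strand), the damage sensor that starts nucleotide excision repair at ultraviolet lesions, was at 49.9, 45.2 and 47.8 TPM after MEN1 knockdown. The controls were at 26.7, 28.96 and 27.8 TPM, and the rise (log2 fold change 0.76, SE 0.0689, adjusted p 0.000109) was large beside the small spread. XPC, its partner in recognising damage, rose less, from 29.2 ± 1.15 to 35.7 ± 0.499 TPM, or 0.28 as log2 fold change (adjusted p 0.00738). POLH, the translesion polymerase eta, rose from 13.1 ± 0.826 to 16.8 ± 0.354 TPM (0.34, adjusted p 0.00897). POLH lies antisense to GTPBP2 over 15208 bases, whose mean level was 221 TPM after MEN1 knockdown and 90.4 TPM in the controls. Whether the authors' quantification separated the strands is not stated, so the part of GTPBP2 in the rise of POLH was not tested. For the 3 other members with an antisense neighbour above 5 TPM, that neighbour's means lay closer together: NDUFAF6 over TP53INP1 was at 35.5 TPM after MEN1 knockdown and 39.6 TPM in the controls, LACTB over RPS27L at 18.1 and 21.7 TPM, and NCOA6 over TP53INP2 at 25.1 and 21.9 TPM. RRM2B, the stress-inducible small subunit of ribonucleotide reductase, was at 21.8 ± 1.72 against 23.2 ± 1.94 TPM (-0.08, adjusted p 0.484).

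Of the 4 metabolic, mitochondrial and autophagy genes, 2 were tested. TP53INP2, which helps form autophagosomes, was at 9.96, 12.4 and 13.6 TPM after MEN1 knockdown, against 4.43, 4.29 and 4.97 TPM in the controls. Its rise was the fourth largest of the members (log2 fold change 1.22, SE 0.131, adjusted p 0.000218). FDXR, the reductase that feeds electrons to mitochondrial P450 enzymes and iron-sulfur cluster assembly, was at 13.2 ± 1.63 against 10.6 ± 0.263 TPM. All 3 of its MEN1 shRNA libraries lay above the controls, but it narrowly missed the threshold (log2 fold change 0.28, adjusted p 0.0511).

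The 4 untested members were all below 1 TPM in all 6 libraries. SPATA18, a gene of mitochondrial quality control, is listed at 0 throughout. TIGAR, a regulator of glycolysis, was at 0.158, 0.210 and 0.217 TPM after MEN1 knockdown and 0.0487, 0.0408 and 0.0347 TPM in the controls. The death receptor EDA2R was at 0.166, 0.240 and 0.198 TPM, against 0.0461 and 0.0354 TPM in control replicates 1 and 2, and is listed at 0 in control replicate 3. PHLDA3, a repressor of AKT signalling, was at 0.336 to 0.702 TPM against 0.164 to 0.389 TPM, and its groups overlapped.

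Of 24 regulators and relatives of p53 22 were tested, with 5 higher (22.7%, against 22.1% of all tested genes), 9 lower (40.9%, against 31.5%) and a median log2 fold change of -0.20. HEXIM1, an inhibitor of the elongation factor P-TEFb that also binds p53 and MDM2, rose from 30.04 ± 1.31 to 86.3 ± 10.6 TPM, or 1.48 as log2 fold change (adjusted p 3.46e-05). KMT5A, a methyltransferase of histone H4 and of p53, rose from 117 ± 2.57 to 202 ± 18.6 TPM (0.78, adjusted p 0.000123). CHEK2, the checkpoint kinase that phosphorylates p53, fell from 41.0 ± 1.67 to 19.6 ± 3.44 TPM (-1.04, adjusted p 0.00027). PRMT5, an arginine methyltransferase that acts on p53, fell from 191 ± 12.3 to 95.9 ± 17.6 TPM (-1.003, adjusted p 0.000376). UBE3A, the ligase through which papillomavirus E6 degrades p53, fell slightly, from 44.9 ± 2.99 to 36.9 ± 2.35 TPM (-0.28, adjusted p 0.0191). The UBE3A call was lost with median-of-ratios scaling (adjusted p 0.0763), with quantile normalization (0.0666) and without MEN1 shRNA replicate 2 (0.0668), control replicate 1 (0.0639) or control replicate 2 (0.0561).

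Of a further 30 p53 targets outside the 31, 24 were tested. Among them 11 were higher (45.8%, against 22.1% of all tested genes) and 6 lower (25%, against 31.5%), with a median log2 fold change of 0.27. The values ran from -1.18 to 2.46. A rise of at least 2-fold was met by 6 genes (25%, against 4.96% of all tested genes). A fall of that size was met by 1, against 6.9% of all tested genes. SFN, whose limits are given below, is counted among both the 11 and the 6. The 4 genes of this list named next, those with the lowest adjusted p, all rose. CDKN1A, which encodes the kinase inhibitor p21, was at 12.2, 20.3 and 17.1 TPM after MEN1 knockdown, against 2.80, 1.82 and 1.84 TPM in the controls (log2 fold change 2.46, adjusted p 7.57e-05). The sestrin SESN2 rose from 4.40 ± 0.211 to 17.2 ± 3.11 TPM (1.74, adjusted p 6.72e-05) and the apoptosis gene BBC3 from 16.5 ± 1.06 to 39.4 ± 5.87 TPM (1.19, adjusted p 0.000149). SFN had a log2 fold change of 1.32, but it entered the test through its MEN1 shRNA libraries alone, since the controls reached at most 0.127 TPM. Its value was set by the pseudocount, at 1.91 with 0.5 and 3.29 with 0.1 in place of 1, and was 0.79 from FPKM. Of 20 genes that p53 lowers through p21 and the DREAM repressor complex, all tested, 55% passed the threshold in either direction, against 53.6% of all tested genes. The split by direction differed from that of all tested genes, but this difference was not tested. The split over all genes depended on the scaling, as given above. In this list 9 rose (45%, against 22.1%), 2 fell (10%, against 31.5%) and 9 did not pass, with a median log2 fold change of 0.13. CDK1 rose from 135 ± 11.4 to 216 ± 18.3 TPM (0.67, adjusted p 0.000455) and CENPF from 104 ± 4.20 to 152 ± 5.21 TPM (0.55, adjusted p 0.000198). KIF23 (-0.80, adjusted p 0.000115) and FOXM1 (-0.68, adjusted p 0.000182) fell.

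Several members are also induced by ATF4, the transcription factor of the integrated stress response. GDF15 and GADD45A are examples, as is SESN2 outside the list. Of 16 genes for ATF4 and its targets 14 were tested, with a median log2 fold change of 0.78. Of the 14, 12 rose (85.7%, against 22.1% of all tested genes), 0 fell (against 31.5%) and 2 did not pass. SESN2 is counted both in this list and among the further p53 targets. ATF4 itself was at 634, 715 and 713 TPM after MEN1 knockdown, against 484, 464 and 513 TPM in the controls (log2 fold change 0.50, adjusted p 0.000688). The cystine transporter gene SLC7A11 rose from 3.67 ± 0.279 to 16.0 ± 2.75 TPM (1.85, adjusted p 5.43e-05) and asparagine synthetase, ASNS, from 100.4 ± 5.03 to 151 ± 10.5 TPM (0.59, adjusted p 0.00035). The part of ATF4 in the rise of the p53 targets was not tested.

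**Figure D4:**
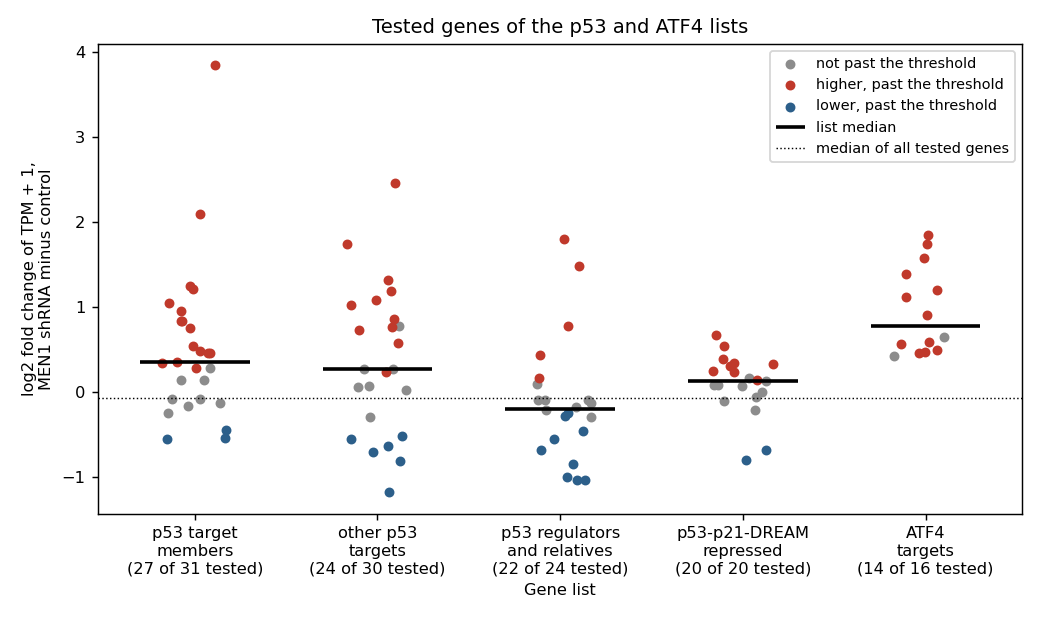
Log2 fold change of TPM + 1 (MEN1 shRNA minus control) for each tested gene of the 31 p53 targets, of 30 further p53 targets, of 24 regulators and relatives of p53, of 20 genes lowered through p21 and DREAM, and of 16 ATF4 genes. Black bars are list medians (0.35, 0.27, -0.20, 0.13 and 0.78), and the dotted line is the median of all tested genes at -0.07; 4 of the 5 lists hold both red (higher) and blue (lower) points.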

How the data were processed

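The submitters' processing notes name FastQC, Trimmomatic, STAR 2.7.1a, Picard 2.20.4, StringTie 2.0.4 and the hg38 build; annotation and use of strand are not given in these sources. Per the labels, libraries were poly(A)-selected and directional. Each deposited table holds 62754 genes with coverage (a signal in reads per base), FPKM and TPM, all computed by the authors, and no read counts. In control replicate 2, 2 genes had a residue just below 0, set to 0. Of 58261 gene IDs shared with GENCODE v29 (GRCh38), 99.9% overlap its positions. The ratio of coverage to FPKM in single-transcript genes gave the aligned bases (the same within 0.1% for 99.5 to 99.7% of them).

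Genes reaching 1 TPM in 3 or more of the 6 libraries were tested on log2(TPM + 1), which understates the change of low genes, with limma 3.58.1 in R 4.3.3 (eBayes with trend, 2-sided, checked on simulated data, Benjamini-Hochberg over 14294 genes, threshold 0.05). Groups come from the titles, which call the samples biological replicates; separate infections are not stated, so p-values measure the spread between these samples. Sums with overlapping same-strand rows (MDM2, GDF15) were added after the data were seen. The members, lists, naming rule and tests were chosen with earlier results of these data known. Per-library values are given for members past the threshold with an absolute log2 fold change of 0.5 or more and for MDM2, MDM4 and PPM1D; TIGAR, EDA2R, TRIAP1, CDKN1A and ATF4 were added after their values were seen. From each other list at most 4 genes with the lowest adjusted p are named, plus CDKN1A, UBE3A, SESN2 and ATF4; 1 gene of the regulator list is not reported here. Alternatives were other pseudocounts, filters and scalings, FPKM, a replicate block, no trend and each library left out. The rest used Python 3.11.15.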

Additional observations from a re-analysis of the deposited data

How the results depend on the processing

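Of the 19 p53 targets past the threshold, 16 kept their direction and call under every alternative run, and none of the 19 changed sign; MDM4, PLK2 and TP53I3 lost the call under 8, 4 and 2 of 16. FDXR, not past the threshold, passed under 7 of 16, among them all 3 alternative scalings (adjusted p 0.0128 to 0.0266), which shift the median of all genes by 0.059 to 0.078 on the log2 scale, and PPM1D passed under quantile normalization (0.0462). Leaving out 1 library gave 16 to 19 members past the threshold (13 to 16 higher and 3 lower each time), 6577 to 7542 genes in all, 14 to 18 of the other p53 targets, 10 to 14 of the p53 regulators and relatives, 8 to 10 of the p53-p21-DREAM repressed genes, 12 to 13 of the ATF4 targets and a MEN1 log2 fold change of -2.46 to -2.38. A mean TPM of 5 or more left 10 of the other p53 targets past the threshold in place of 17, by its own construction, since fewer genes are tested. Among tested members, signs changed for TNFRSF10B (0.050 with quantile normalization) and RRM2B (0.0018 with median-of-ratios scaling and 0.056 with quantile normalization), neither past the threshold.

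Replicate numbers are shared between the groups, but libraries of the same number did not deviate together (r = 0.017, -0.027 and -0.012 for numbers 1, 2 and 3). The main fit did not pair them. With 3 libraries a group these values cannot show whether libraries of the same number were prepared together. With the replicate block 7012 genes passed, and 18 of the members, MDM4 being lost (adjusted p 0.0512). Precision is limited by 3 libraries a group; the lowest coverage of a tested member was 1.19 reads per base, for FAS.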
